A study of Homo sapiens with 6 samples.

Results

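Cathepsins are the proteases of the lysosome, and the 10 described here were CTSA, CTSB, CTSC, CTSD, CTSF, CTSH, CTSK, CTSL, CTSS and CTSZ. They were taken from the table by gene symbol, a rule that holds no measured value, and are 10 of the 60748 genes in the table. All 10 had enough reads to enter the test, which covered 18275 genes. The data are RNA sequencing counts of 6 libraries of LX-2 cells, a line derived from human hepatic stellate cells. LX-2Vector cells (n = 3) carried the empty lentiviral vector and LX-2FAP cells (n = 3) stably overexpressed fibroblast activation protein α (FAPα), a membrane serine protease. Both groups were made by lentiviral infection with the same vector backbone, which carries EGFP and puromycin resistance, and both were cultured for 24 h in DMEM with 10% FBS. Stable clones were selected with puromycin, and how many clones each group holds is not given in the sources used here. Nothing in the labels says that the 3 libraries of a group came from separate cultures, so p-values measure the spread between these libraries, which may be technical.

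Most cathepsins are made as inactive precursors, tagged with mannose 6-phosphate, carried to the lysosome by sorting receptors and activated there by removal of a propeptide in the acid lumen. They finish the breakdown of proteins that reach the lysosome, and several are secreted and can cut collagen, elastin and other matrix proteins. Hepatic stellate cells produce and remodel the matrix of the liver, and cathepsins B, D, L and others have been studied in them in relation to fibrosis. The family name covers 3 catalytic types. CTSB, CTSC, CTSF, CTSH, CTSK, CTSL, CTSS and CTSZ are cysteine proteases, 8 in all, CTSD is an aspartyl protease, and CTSA is a serine carboxypeptidase. In the annotation deposited with the table all 10 carried the terms lysosome and peptidase activity, 8 carried cysteine-type endopeptidase activity, and 5 (CTSB, CTSD, CTSK, CTSL and CTSS) carried collagen catabolic process. In GENCODE release 29 (GRCh38) the 10 protein-coding genes lie on 6 chromosomes. CTSC (chr11:88293592-88337787), CTSD (chr11:1752752-1764573) and CTSF (chr11:66563463-66568841) share chromosome 11, CTSA (chr20:45890144-45898820) and CTSZ (chr20:58995185-59007247) chromosome 20, and CTSS (chr1:150730196-150765957) and CTSK (chr1:150796208-150808323) are near each other on chromosome 1. CTSL is at chr9:87725519-87731393, CTSB at chr8:11842524-11869448 and CTSH at chr15:78921058-78949574.

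Total counts ran from 17355700 to 26352060 per library. FAP read counts were 49, 42 and 55 in the LX-2Vector libraries and 14864, 15160 and 14805 in the LX-2FAP libraries, a log2 fold change of 8.33 ± 0.13 (SE), so FAP matched the label of every library. Of 10 stellate cell markers, 8 had a mean of at least 1 FPKM, while COL1A2 (a collagen I chain) and DES (desmin) lay below it, and 3 of the 9 tested were called lower (COL1A1, COL3A1 and PDGFRB, log2 fold changes of -0.40, -0.69 and -0.38) and 1 higher (VIM, 0.13), beside 2.73% and 2.57% of all tested genes. Of 10 macrophage markers, 8 lay under 1 FPKM, and the summed level of the 10 ran from 21.2 to 25.1 CPM (counts-per-million after TMM normalization) in LX-2Vector and from 22.1 to 25.4 CPM in LX-2FAP. The summed markers of 3 other cell types were lower in LX-2FAP without overlap. The ranges were 13.7 to 16.1 against 11.2 to 12.1 CPM for 8 hepatocyte genes and 11.7 to 13.4 against 8.62 to 11.4 CPM for 7 endothelial genes (VWF called lower). For 5 epithelial genes they were 168.4 to 175.5 against 148.9 to 166.6 CPM. No tested hepatocyte or epithelial marker was called. Among single tested genes, 13.4% were lower in LX-2FAP without overlap. Of the markers of these 3 cell types, 7 hepatocyte, 7 endothelial and 3 epithelial genes lay under 1 FPKM, and TTR and CLEC4G were listed at 0 in all libraries. Their part in the cathepsin values was not tested. On the first principal component, which held 36.2% of the variance, LX-2FAP replicate 1 lay at 1.91, nearer to the LX-2Vector libraries (-20.7 to -11.6) than the other LX-2FAP libraries did (17 and 25.4). Results are therefore also given without that library. In bulk RNA, fewer cells of a kind and less RNA per cell cannot be told apart.

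A motif known to draw the MiT/TFE transcription factors, which drive lysosomal genes, has CACGTG at its core. Start-site sequences from RefSeq (GRCh38.p14) were in hand for 7 of the 10 genes. CACGTG, a palindrome that reads alike on both strands, lay within 250 bases before to 50 bases after the start in CTSA, CTSD and CTSF, and in 7.26% of all 35116 promoters of the same length. The longer form GTCACGTG, searched on both strands and overlapping CACGTG, was in CTSA and CTSD and in 2.4% of all promoters. The 200 bases around the start (150 before and 50 after) are shown for these 3 genes and for CTSC and CTSL, the cathepsins with the largest positive fold changes and no CACGTG in the window. Capitals mark CACGTG. The windows are chr20:45891185-45891384 (plus strand), chr11:1763878-1764077 (minus strand), chr11:66568557-66568756 (minus strand), chr11:88337687-88337886 (minus strand) and chr9:87725969-87726168 (plus strand), each printed 5′ to 3′ on its own strand.
CTSA: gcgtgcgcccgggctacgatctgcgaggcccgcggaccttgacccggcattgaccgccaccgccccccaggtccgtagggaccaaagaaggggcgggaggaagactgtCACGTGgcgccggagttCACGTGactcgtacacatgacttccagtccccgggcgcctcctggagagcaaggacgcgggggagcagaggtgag
CTSD: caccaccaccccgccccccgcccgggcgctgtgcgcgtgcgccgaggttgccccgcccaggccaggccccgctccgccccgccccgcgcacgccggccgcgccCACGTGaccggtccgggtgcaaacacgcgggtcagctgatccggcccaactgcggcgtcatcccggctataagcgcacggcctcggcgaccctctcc
CTSF: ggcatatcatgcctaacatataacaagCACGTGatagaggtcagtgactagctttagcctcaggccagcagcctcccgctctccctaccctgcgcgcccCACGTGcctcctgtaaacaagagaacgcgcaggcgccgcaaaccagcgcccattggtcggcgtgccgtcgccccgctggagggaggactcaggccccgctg
CTSC: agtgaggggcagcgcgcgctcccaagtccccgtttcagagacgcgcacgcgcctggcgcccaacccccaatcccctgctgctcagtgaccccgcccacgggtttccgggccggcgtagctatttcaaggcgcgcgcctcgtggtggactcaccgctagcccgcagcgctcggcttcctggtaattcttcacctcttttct
CTSL: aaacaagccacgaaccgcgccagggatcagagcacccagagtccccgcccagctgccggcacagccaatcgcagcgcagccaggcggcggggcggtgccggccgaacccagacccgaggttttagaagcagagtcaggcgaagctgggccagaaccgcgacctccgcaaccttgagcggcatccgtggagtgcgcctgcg
The motif began 42 and 25 bases before the start in CTSA, 47 bases before it in CTSD, and 123 and 51 bases before it in CTSF. The CTSH and CTSZ windows held none, and CTSZ had the lowest log2 fold change of the 10 cathepsins (-0.18). A match describes letters and not a bound site. Over all tested genes with a promoter in the table, the 1414 with CACGTG had a median log2 fold change of -0.005 and the 10244 without it a median of -0.002.

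Cathepsin transcripts differed little between LX-2Vector and LX-2FAP. Of the 10, 1 passed an adjusted p of 0.05 (edgeR quasi-likelihood test, Benjamini-Hochberg over all tested genes), where 5.29% of all tested genes did, 2.57% higher and 2.73% lower in LX-2FAP. That gene was CTSC, which rose by 12.3%. The other 9 did not pass. Log2 fold changes ran from -0.18 (CTSZ) to 0.17 (CTSC), 3 positive and 7 negative, with a median of -0.09 beside -0.01 over all tested genes. The 95% intervals of the 10 fold changes, not adjusted for the number of genes, all lay between 0.771-fold and 1.2-fold. At a fold change over 1.2 in either direction with an unadjusted edgeR p under 0.05, 0 of the 10 and 7.89% of tested genes passed. At an unadjusted p under 0.05 the count was 4 of 10 (CTSC, CTSZ, CTSL and CTSA) beside 22.2% of tested genes. DESeq2 called 2 of 10 (CTSC and CTSZ) beside 8.93% of the 11543 genes to which it gave an adjusted p. It was fitted to the same 18275 genes, so this share has a smaller base than that of edgeR. Without LX-2FAP replicate 1 edgeR called the same pair, beside 10.4% of genes. It called 0 of 10 without LX-2FAP replicate 2 or 3 (beside 0.687% and 0.138% of genes). Without LX-2Vector replicate 1 or 3 it also called 0 of 10 (beside 2.09% and 2.12%). In those 4 fits 3 to 5 of 10 had an unadjusted p under 0.05, and the share over all genes was not computed. Without LX-2Vector replicate 2 it called 1 of 10 (CTSZ), beside 3.54% of genes. There 6 of 10 had an unadjusted p under 0.05, and the share over all genes was again not computed. These unadjusted counts are therefore not read as a result about the cathepsins.

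**Figure D1:**
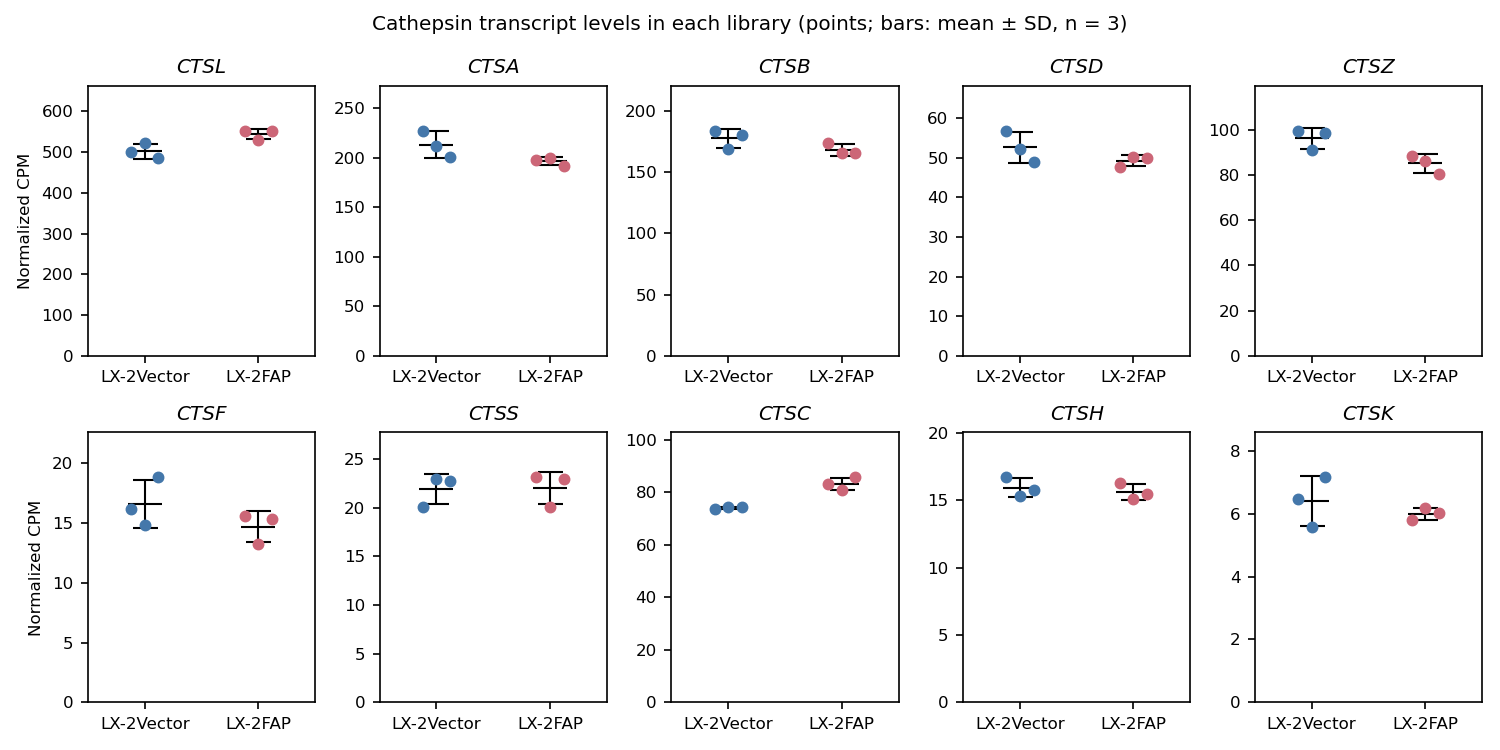
Normalized level of each cathepsin (vertical axis, TMM-normalized CPM, starting at 0) in the 3 LX-2Vector and 3 LX-2FAP libraries; points are libraries and bars the mean ± SD. The groups do not overlap for CTSC and CTSL, which are higher in LX-2FAP, and for CTSA and CTSZ, which are lower.

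CTSC, also called dipeptidyl peptidase 1, removes dipeptides from protein ends and activates the serine proteases of immune granules. Its level was 73.8, 74.5 and 74.3 CPM in LX-2Vector replicates 1 to 3 and 83.2, 80.8 and 85.7 CPM in LX-2FAP replicates 1 to 3. All 3 LX-2FAP libraries lay above all 3 LX-2Vector libraries. The groups were likewise separate for CTSL (higher in LX-2FAP) and for CTSA and CTSZ (lower), which makes 4 of the 10 cathepsins, 2 in each direction, beside 26.4% of all tested genes, 13.0% higher and 13.4% lower. The means were 74.2 ± 0.366 and 83.2 ± 2.48 CPM (SD, n = 3), and the log2 fold change was 0.17 ± 0.04 (SE; 95% interval 0.07 to 0.26, adjusted p = 0.0426). The SD of the LX-2Vector libraries was 0.493% of their mean, the smallest among the cathepsins in either group. The call was not stable. CTSC was called in 5 of 15 alternative settings, with adjusted p from 0.0323 to 0.306 over them. With 1 library left out it was called only without LX-2FAP replicate 1 (adjusted p = 0.0448), and the adjusted p was 0.0833, 0.0783 and 0.0882 without LX-2Vector replicates 1, 2 and 3 and 0.0944 and 0.253 without LX-2FAP replicates 2 and 3. The log2 fold change stayed between 0.10 and 0.19 in all 15.

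CTSZ, a carboxypeptidase that removes single residues from the C-terminus, was on average lower in LX-2FAP, short of the threshold. It was at 99.4, 90.9 and 98.4 CPM in LX-2Vector and at 88.4, 86.3 and 80.5 CPM in LX-2FAP. The lowest LX-2Vector library was above the highest LX-2FAP library by less than the SD within either group. The means were 96.3 ± 4.68 and 85.1 ± 4.07 CPM (SD, n = 3), with a log2 fold change of -0.18 (95% interval -0.29 to -0.07) and an adjusted p of 0.0505, just outside the threshold. CTSZ was called in 6 of 15 alternatives, among them the DESeq2 Wald test (adjusted p = 0.0457), library size alone (0.0266) and the fit without LX-2FAP replicate 1 (0.0265). After a smooth trend on GC content was removed from each library the log2 fold change was -0.05, with an adjusted p of 0.574. CTSC and CTSZ stood in a ratio of 0.742, 0.819 and 0.755 in LX-2Vector and 0.941, 0.936 and 1.06 in LX-2FAP (exact permutation test, 2-sided, p = 0.1, the smallest that 3 against 3 libraries allow; the pair was picked after its values were seen). The pair differs in GC content (41.4% and 60.3%), and with the GC trend removed the log2 fold changes were 0.14 and -0.05 in place of 0.17 and -0.18.

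CTSH acts mainly as an aminopeptidase. It was at 16.7, 15.3 and 15.8 CPM in LX-2Vector and 16.3, 15.1 and 15.5 CPM in LX-2FAP. The groups overlapped almost wholly, and the log2 fold change of -0.03 had a 95% interval of -0.19 to 0.13 (adjusted p = 0.869).

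Among the endopeptidases, which cut within protein chains, CTSL took the most reads. CTSL degrades proteins in the lysosome and, outside the cell, collagen and elastin. Its level was 500.3, 521.7 and 485.6 CPM in LX-2Vector and 552.1, 531.0 and 551.7 CPM in LX-2FAP. Every LX-2FAP library was above every LX-2Vector library, with means of 544.9 ± 12.1 and 502.5 ± 18.2 CPM (SD, n = 3). The log2 fold change of 0.12 (95% interval 0.03 to 0.20) had an adjusted p of 0.0899 and did not pass. Of the 15 alternatives, 1 called it: with the GC trend removed the log2 fold change was 0.16 and the adjusted p 0.0277. Each of 7 CTSL pseudogenes had at most 7 counts in a library, and no 75-base word of CTSL was shared with another gene in GENCODE release 29.

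CTSB, which acts both as an endopeptidase and as a dipeptidyl carboxypeptidase, was at 183.5, 168.8 and 180.0 CPM in LX-2Vector and 173.8, 165.3 and 165.7 CPM in LX-2FAP. The ranges overlapped, and the log2 fold change was -0.08 (95% interval -0.17 to 0.02, adjusted p = 0.323). CTSS, an endopeptidase of antigen-presenting cells that trims the invariant chain of MHC class II, was at 20.1, 22.9 and 22.7 CPM in LX-2Vector and 23.1, 20.1 and 22.9 CPM in LX-2FAP. Its lowest value was nearly the same in both groups, and the log2 fold change was 0.02 (95% interval -0.14 to 0.18), with a sign that turned under 7 of the 15 alternatives. CTSF, another endopeptidase of the invariant chain, was at 16.2, 14.8 and 18.8 CPM in LX-2Vector and 15.6, 13.2 and 15.3 CPM in LX-2FAP. Its log2 fold change of -0.17 was close to that of CTSZ, but the SD of its LX-2Vector libraries was 12.2% of their mean and the 95% interval, -0.38 to 0.03, was the second widest after that of CTSK (adjusted p = 0.299).

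CTSK, the collagenase of osteoclasts, took the fewest reads of the 10. Read counts were 171, 98 and 152 in LX-2Vector and 139, 111 and 126 in LX-2FAP, or 6.47, 5.58 and 7.15 CPM against 5.80, 6.17 and 6.01 CPM. All LX-2FAP values fell inside the LX-2Vector range, and the log2 fold change was -0.10 (95% interval -0.35 to 0.14, adjusted p = 0.652). The 5 genes annotated to collagen catabolism held 0 calls, and 1 (CTSL) at an unadjusted edgeR p under 0.05, beside 5.29% and 22.2% of all tested genes. Their log2 fold changes ran from -0.10 to 0.12.

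CTSD, the main aspartyl protease of the lysosome, was at 56.7, 52.2 and 48.9 CPM in LX-2Vector and 47.6, 50.1 and 49.8 CPM in LX-2FAP. LX-2FAP replicate 1 lay below all LX-2Vector libraries and the other two inside their range, and the log2 fold change was -0.10 (95% interval -0.23 to 0.02, adjusted p = 0.336). In GENCODE release 29, 41.7% of its exon bases are also exon of AC068580.4 on the same strand, and reads there may not have been counted for either gene. AC068580.4 itself had 1 to 3 counts per library.

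CTSA cuts residues from the C-terminus and holds the sialidase NEU1 and the β-galactosidase GLB1 in a protective complex. It was at 226.9, 212.2 and 200.6 CPM in LX-2Vector and 197.2, 199.8 and 191.9 CPM in LX-2FAP. The groups did not overlap, though the lowest LX-2Vector and the highest LX-2FAP libraries differed by less than either SD (13.2 and 4.01 CPM). The log2 fold change was -0.12 (95% interval -0.22 to -0.02, adjusted p = 0.138), and -0.01 with the GC trend removed. Genes on the opposite strand share 28.5% of its exon bases. Among them NEURL2 had 8 to 25 counts and PLTP, a lipid transfer protein with 3.4% of the CTSA exon bases, had 193 to 430 counts, beside 3593 to 5995 for CTSA. PLTP was called lower (log2 fold change -0.50, adjusted p = 0.00823), and whether counting used strand is not given in the sources used here, so its part in the CTSA value was not tested. The partners NEU1 and GLB1 were at 107.5 ± 10.5 and 62.4 ± 1.59 CPM in LX-2Vector and 105.7 ± 3.86 and 61.3 ± 1.22 CPM in LX-2FAP, with log2 fold changes of -0.03 and -0.02 that did not pass.

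**Figure D2:**
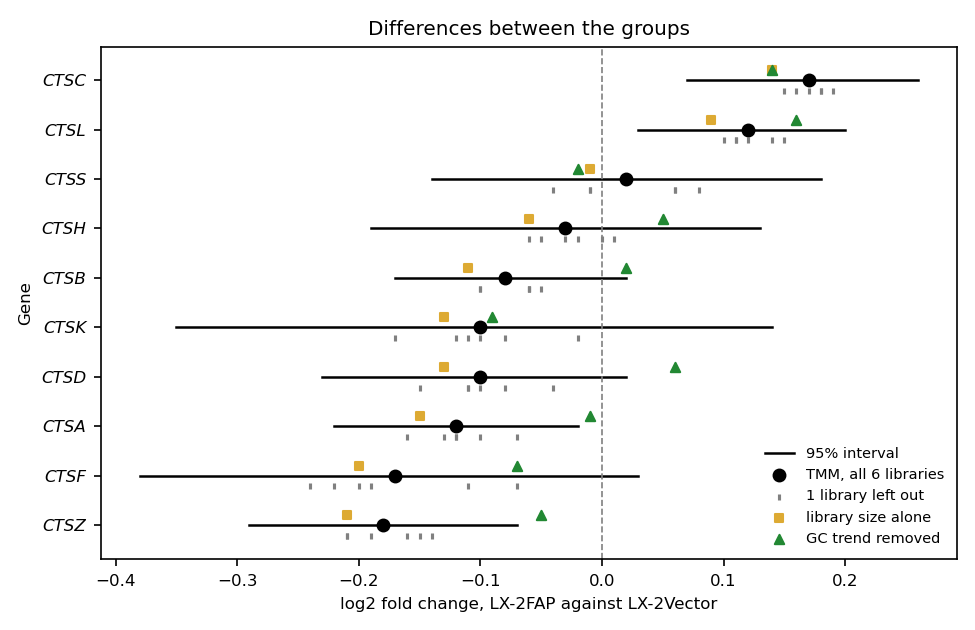
Log2 fold change of each cathepsin (horizontal axis, LX-2FAP against LX-2Vector); black points with lines are the TMM fit with its 95% interval, grey ticks the 6 fits with 1 library left out, squares library size alone and triangles the fit with the GC trend removed. Only the lines of CTSC, CTSL, CTSA and CTSZ stay clear of 0, and the triangles of CTSA and CTSZ move to -0.01 and -0.05.

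Compared per length, the family was dominated by CTSL. Deposited FPKM (fragments scaled by gene length and by mapped reads) in LX-2Vector averaged 82.8 ± 3.13 for CTSL, 24.9 ± 1.45 for CTSA and 17.0 ± 0.674 for CTSB (SD, n = 3). CTSD followed at 9.30, CTSZ at 5.00, CTSF at 3.94, CTSS at 3.20, CTSC at 3.01, CTSH at 1.17 and CTSK at 0.764 FPKM. Each gene was above the next in 6 of 6 libraries except CTSS and CTSC, where CTSS was higher in 3 of 6. CTSL exceeded 98.3% of all tested genes in FPKM, CTSA 89.8% and CTSK 22.7%.

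The lower ranks, and the places among all tested genes, depend on the gene lengths behind FPKM. The length implied by the deposited counts and FPKM exceeded the merged exon length in GENCODE release 29 for all 10 cathepsins, from 1.42 times for CTSB to 9.51 times for CTSZ (19384 against 2038 bases). Among tested genes 39.0% had equal lengths and 8.38% were over 1.3 times, as all 10 cathepsins were. A longer length lowers FPKM, so the places of the cathepsins among all tested genes may be too low. With GENCODE 29 lengths, CTSL stayed first at 212.4 CPM per kb in LX-2Vector, CTSZ came second at 47.2, and CTSA, CTSB and CTSD followed at 36.4, 23.9 and 16.8. CTSC, CTSF and CTSS lay at 6.49, 5.74 and 5.18 CPM per kb, CTSK at 3.39 and CTSH last at 2.70. This scale divides reads counted over the longer deposited gene models by lengths from another annotation. Reads from bases outside the GENCODE 29 exons, if counted, would raise a value. Whether the second rank of CTSZ, where the lengths differ most, rests on such reads was not tested. Differences between the groups within a gene do not depend on its length.

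**Figure D3:**
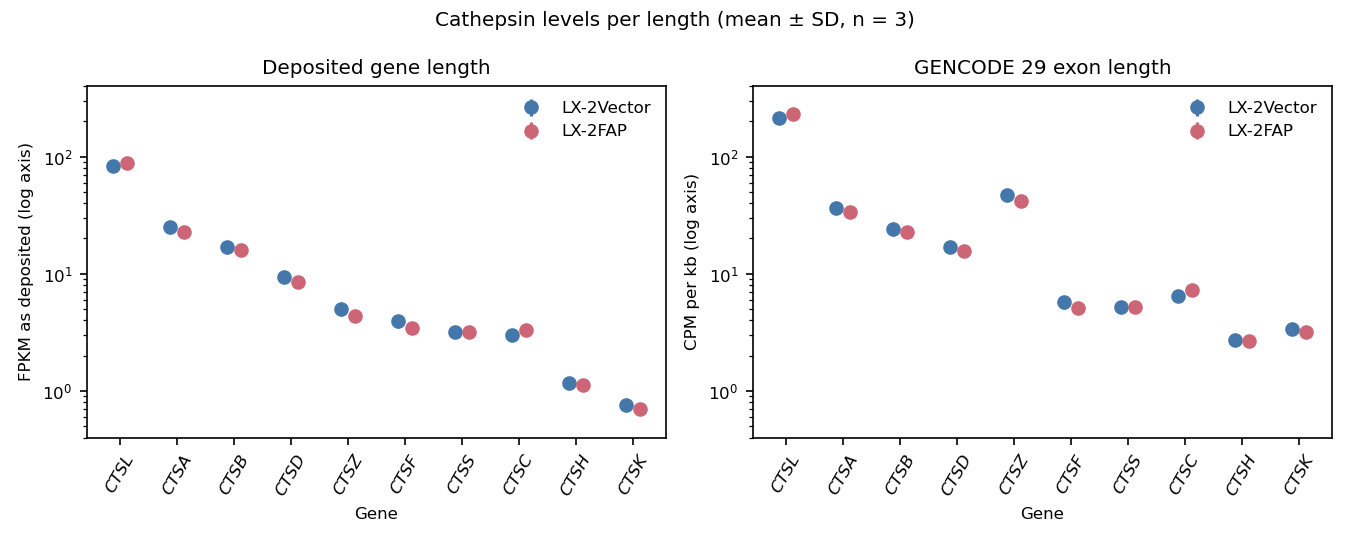
Level of each cathepsin per length on log axes, as FPKM with the deposited gene lengths (left) and as CPM per kb of exon in GENCODE release 29 (right); points are means and bars the SD of 3 libraries, smaller than the point for most genes. CTSL is highest on both scales, and CTSZ moves from the fifth rank on the left to the second on the right. The right scale divides counts made over the longer deposited gene models by GENCODE 29 lengths, so reads outside those exons could raise its values.

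The summed level of the family was level between the groups. It was 1200.2, 1178.9 and 1152.2 CPM in LX-2Vector and 1203.0, 1167.8 and 1185.1 CPM in LX-2FAP, with means of 1177.1 ± 24.1 and 1185.3 ± 17.6 CPM (SD, n = 3; exact permutation test, 2-sided, p = 0.6). Its sign is not settled: the difference of 8.27 CPM was -15.4 CPM with library size alone. Without CTSL the other 9 summed to 674.5 ± 22.5 and 640.4 ± 9.31 CPM in LX-2Vector and LX-2FAP, and every LX-2FAP sum (633.4 to 651.0) lay below every LX-2Vector sum (657.1 to 699.9, exact permutation p = 0.1, the smallest possible). CTSL made up 53.7%, 56.4% and 54.4% of the summed cathepsin FPKM in LX-2Vector and 58.3%, 57.9% and 58.9% in LX-2FAP. The share was higher in each LX-2FAP library than in each LX-2Vector library (exact permutation p = 0.1). CTSL stood at 2.20, 2.46 and 2.42 times CTSA by CPM in LX-2Vector and at 2.80, 2.66 and 2.88 times in LX-2FAP. These sums and ratios were picked after the values of the genes had been seen. They were not computed with the GC trend removed. In that fit the log2 fold changes of the 9 ran from -0.09 (CTSK) to 0.14 (CTSC), with CTSA at -0.01, and that of CTSL was 0.16.

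Fold changes over the whole transcriptome moved with the GC content of the transcripts. Among tested genes under 45% GC, 33.2% had a negative log2 fold change (median 0.06; 379 called higher and 41 lower), and among those at 55% or more 76.4% did (median -0.10; 8 called higher and 335 lower). CTSC (41.4% GC) and CTSS (40.3%) were in the low group, CTSK (46.7%), CTSL (50.2%) and CTSH (54.5%) in between, and CTSB, CTSF, CTSA, CTSZ and CTSD (56.1% to 63.4%) in the high group, where all 5 had negative fold changes. Spearman's rho between GC and log2 fold change was -0.71 over the 10 genes and -0.37 over the 17929 tested genes with a GC value, given as a description since genes share their libraries. With the GC trend removed from each library the median of the 10 was 0.01 beside 0.03 over all genes, CTSB, CTSD and CTSH changed sign to 0.02, 0.06 and 0.05, CTSS to -0.02, CTSC had a log2 fold change of 0.14 (adjusted p = 0.0644), and CTSL was the 1 cathepsin called (4.39% of genes were). Whether the trend is technical was not tested.

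**Figure D4:**
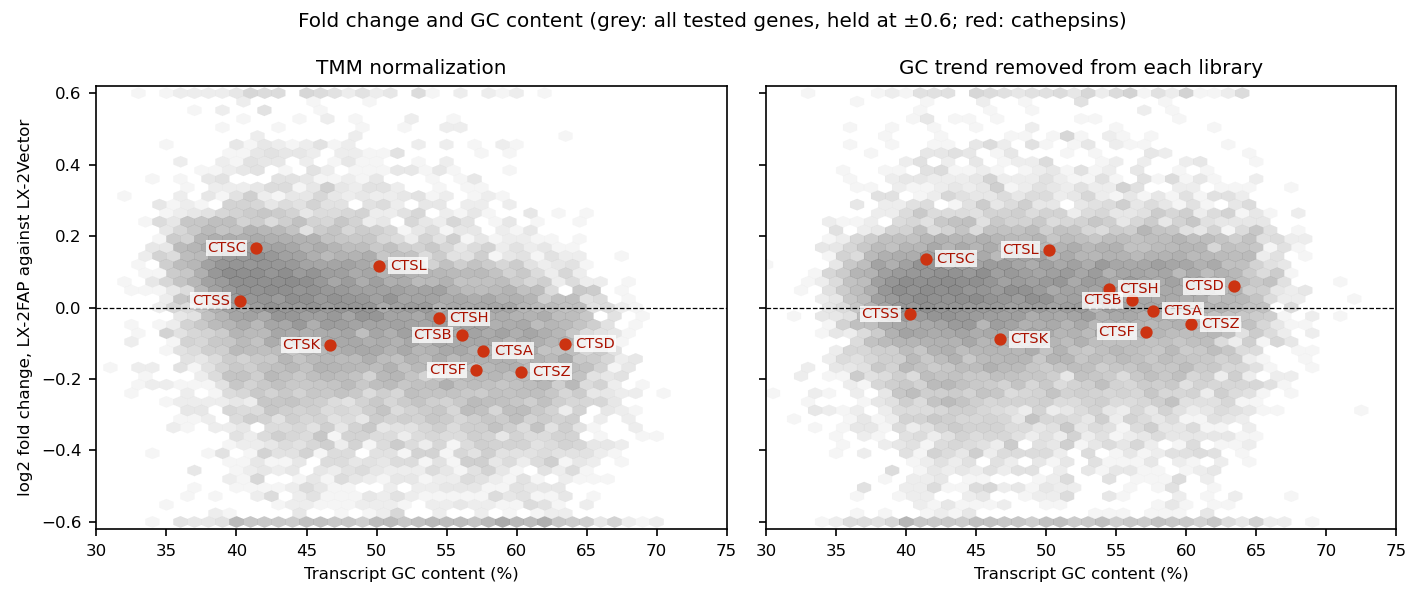
Log2 fold change (vertical axis, LX-2FAP against LX-2Vector) against transcript GC content (horizontal axis, %) before (left) and after (right) removal of a GC trend from each library; grey hexagons count tested genes on a log shade, with values past 0.6 held at that line, and red points are the 10 cathepsins. On the left the 5 cathepsins at 55% GC or more lie below 0, and on the right CTSC and CTSL stand highest.

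Lists of 95 other genes of the cathepsin and lysosome pathway, in 7 groups, held 85 tested genes, of which 5 were called, beside 5.29% of all tested genes. Leaving out LX-2FAP replicate 1 gave 12 calls (beside 10.4% of genes), and leaving out replicate 3 gave 0 (beside 0.138%). Of the other cathepsins, 3 of 5 were tested and 0 called: CTSV, the closest relative of CTSL, at 30.2 ± 2.28 and 30.1 ± 2.53 CPM (log2 fold change 0.01), CTSO at 6.80 ± 0.713 and 6.64 ± 1.23 CPM (-0.02) and CTSW of lymphocytes at 1.19 ± 0.167 and 1.16 ± 0.174 CPM (-0.04), in LX-2Vector and LX-2FAP. CTSE and CTSG had at most 8 counts in a library. At an unadjusted p under 0.05 the list also held 0 genes, beside 22.2% of all tested genes.

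Cystatins are the tight-binding inhibitors of cysteine cathepsins. Of 9 listed, 2 had enough reads: CST3 (cystatin C, secreted) was at 79.0 ± 10.3 and 73.7 ± 3.89 CPM (log2 fold change -0.10, adjusted p = 0.471) and CSTB (stefin B, cytosolic) at 48.7 ± 3.77 and 47.4 ± 1.09 CPM (-0.04, adjusted p = 0.737). The untested CST1 had 5, 5 and 8 counts in LX-2Vector and 17, 8 and 19 in LX-2FAP, too few to pass the expression filter. With no filter it was called higher (log2 fold change 1.32, adjusted p = 0.024), the 1 cystatin called in that fit, beside 3.9% of 41175 genes. None of the 10 sorting and processing genes was called, with log2 fold changes from -0.18 to 0.04 and 2 at an unadjusted p under 0.05. They include the mannose 6-phosphate receptors M6PR (0.03) and IGF2R (-0.02) and legumain (LGMN), the asparaginyl protease that processes several cathepsins (37.0 ± 1.04 and 34.7 ± 1.84 CPM; -0.09, adjusted p = 0.390).

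Of 37 other lysosomal hydrolases and activators, 2 fell and 0 rose, beside 2.73% and 2.57% of all tested genes. At an unadjusted p under 0.05 there were 10 of 37, beside 22.2%. ARSA, the arylsulfatase that degrades sulfatide, had a log2 fold change of -0.40 (13.4 and 10.1 CPM, adjusted p = 0.0233) and GAA, the acid α-glucosidase of glycogen, one of -0.34 (21.3 and 16.8 CPM, adjusted p = 0.0356). Both have GC-rich transcripts (65.6% and 64.6%), and with the GC trend removed the values were -0.22 and -0.17 and neither passed. The list median was -0.04. Of 12 lysosomal membrane genes, 0 were called and 3 had an unadjusted p under 0.05, with a median of 0.02. LAMP1 and LAMP2, the main glycoproteins of the lysosomal membrane, had log2 fold changes of 0.01 and 0.05.

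The V-ATPase, the proton pump that keeps the lysosome acid enough for cathepsins, held 3 of the 5 calls among its 18 genes, and 7 of 18 had an unadjusted p under 0.05, beside 5.29% and 22.2% of all tested genes. The calls numbered 6 without LX-2FAP replicate 1, 0 without replicate 3 and 0 with either limma fit on FPKM. ATP6V1D and ATP6V1C1, subunits of the cytosolic V1 sector, rose with log2 fold changes of 0.20 (124.7 and 143.4 CPM, adjusted p = 0.0209) and 0.17 (149.1 and 167.5 CPM, adjusted p = 0.0466). TCIRG1, the a3 subunit of the membrane V0 sector, fell, with -0.42 (49.2 and 36.8 CPM, adjusted p = 0.00765). Of 8 V1 genes, 7 had positive log2 fold changes, with a median of 0.15 (0.12 with the GC trend removed). Of 10 V0 and accessory genes 6 did, with a median of 0.03 (0.04 with the trend removed). Among all 18275 tested genes 8590 did, with a median of -0.01 (0.03 with the trend removed). The sectors were not among the planned lists. With the GC trend removed ATP6V1D (0.19, adjusted p = 0.0289) and TCIRG1 (-0.24, adjusted p = 0.037) still passed. ATP6V1C1 did not (0.12, adjusted p = 0.114). The MiT/TFE factors TFEB, TFE3 and MITF, regulators of lysosomal genes, had log2 fold changes of -0.19, -0.00 and -0.05 and 0 calls, with none at an unadjusted p under 0.05, and TFEC was below the filter.

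**Figure D5:**
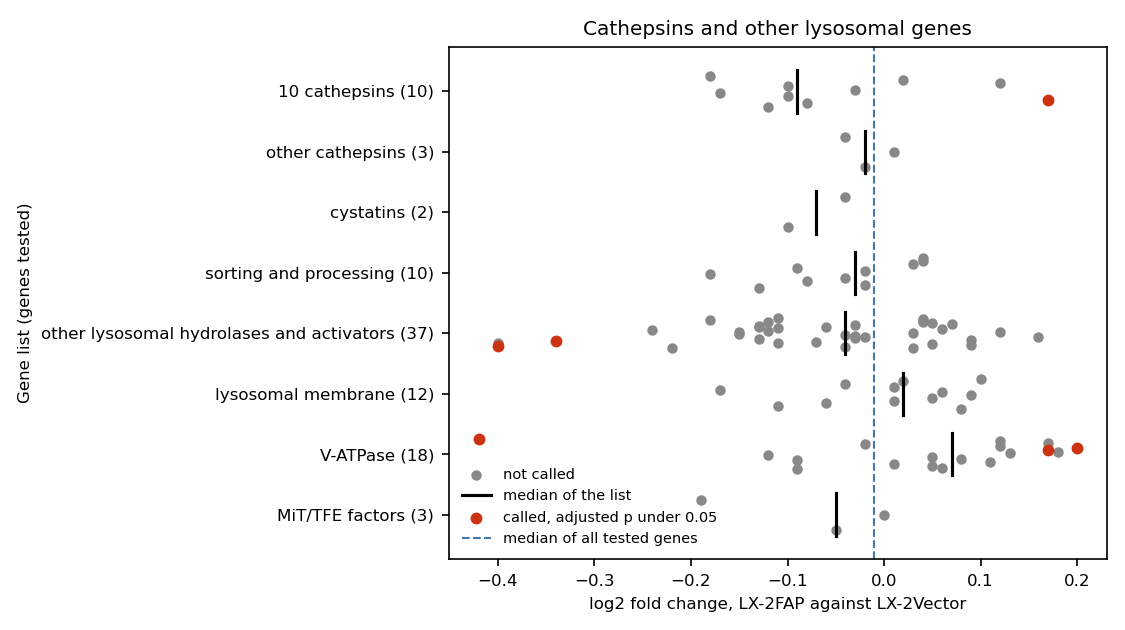
Log2 fold change (horizontal axis, LX-2FAP against LX-2Vector) of every tested gene in the cathepsin group and 7 lysosomal lists (rows, with the number of tested genes); red points are called at an adjusted p under 0.05, black bars are list medians and the dashed line is the median of all tested genes. The red points are CTSC, ARSA, GAA, TCIRG1, ATP6V1D and ATP6V1C1.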

How the data were processed

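The authors aligned reads with Hisat2 v2.0.5, counted them per gene with FeatureCounts v1.5.0-p3, and deposited whole-number counts, not normalized, and FPKM, which the authors derived from each gene's count and length. The submitters' processing notes also name DESeq2 1.16.1, edgeR and the build hg18. The annotation release and use of strand are not given in the sources used here. The labels describe RNA depleted of ribosomal RNA and the methods also name poly(A) selection. Groups and replicate numbers came from sample titles, and no column was left unassigned.

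Counts were tested with edgeR 4.0.16 (R 4.3.3; quasi-likelihood, TMM, minimum count 10, minimum total 15), comparing LX-2FAP to LX-2Vector without covariates. All p-values are 2-sided and were adjusted by Benjamini-Hochberg over 18275 genes. Of the rows, 143 had no Ensembl ID. Intervals are at 95%, and standard errors were derived from the test statistic. Depth was 17355700 to 26352060 counts, which leaves CTSK with 98 to 171 counts and CTSL with 9156 to 13233.

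The members, the gene lists and the tests were chosen with earlier results of these data known. Genes named are the members, FAP, up to 3 called genes per list and direction with the largest changes, the other cathepsins, cystatins and MiT/TFE factors, known partners, and overlapping or near-identical genes; M6PR, IGF2R, LAMP1, LAMP2, COL1A2 and DES were named after their values were seen. Coordinates and exon overlaps came from GENCODE release 29 (GRCh38), GC content, known for 98.1% of tested genes, from its transcripts, and promoters from RefSeq (GRCh38.p14).

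Alternatives were library size alone or DESeq2 size factors as scaling, the Wald test of DESeq2 1.42.0, no filter or a minimum of 10 counts in each library, limma-trend (limma 3.58.1) on log2(FPKM + 1) and log2(FPKM + 0.1) of the deposited FPKM, the replicate number as a block, and each library left out. A fit with the GC trend removed (loess per library, span 0.5) was chosen after seeing the data. The test was checked on simulated counts.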

Additional observations from a re-analysis of the deposited data

How the results depend on the processing

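FAP and the count of 0 cathepsins at the study's cutoff kept their direction and side under all alternatives. Cathepsins called numbered 2 with the DESeq2 Wald test, with no filter and with at least 10 counts in every sample, beside 8.93%, 3.9% and 6.32% of genes. They numbered 0 with both limma fits, beside 0.0109%, and 0 to 2 with 1 library left out, beside 0.138% to 10.4%. In each limma fit 3 of 10 had an unadjusted p under 0.05, and the share over all genes at that p was not computed. Genes called numbered 967 of 18275 in the main fit. With the DESeq2 Wald test they numbered 1031 of the 11543 genes that received an adjusted p. They numbered 1606 of 41175 with no filter and 1045 of 16547 with at least 10 counts in every sample. Each limma fit called 2 genes, and the fits with 1 library left out called 26 (without LX-2FAP replicate 3) to 1949 (without LX-2FAP replicate 1). The split of higher to lower calls, 469 to 498, was 239 to 809 with library size alone and 579 to 208 with the GC trend removed. Among the lysosomal lists 5 genes were called, 9 with no filter, 2 with the GC trend removed, 0 with both limma fits, and 0 to 12 with 1 library left out. The difference in summed cathepsin level, 8.27 CPM, was -15.4 CPM with library size alone, -0.202 FPKM on deposited FPKM, and from -4.19 to 19.8 CPM with 1 library left out. CTSS turned to -0.01 with library size alone, -0.02 with log2(FPKM + 0.1), -0.01 with log2(FPKM + 1), -0.02 with the GC trend removed and as low as -0.04 (highest 0.08) with 1 library left out, and CTSH ran from -0.06 to 0.01 with 1 library left out. With the GC trend removed CTSB was 0.02, CTSD 0.06 and CTSH 0.05. The limma fits work on log2 FPKM, without TMM and with no count model. The causes of the differences between the fits were not tested.

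Same-numbered libraries did not deviate together (correlations of -0.04, 0.04 and -0.01), and 0 of 6 correlated best with their own number. With 3 libraries per group this cannot show that same-numbered libraries were handled apart, and the labels name no pairing. With the replicate block 975 genes (5.34%) and 0 cathepsins were called, and CTSC had an adjusted p of 0.0505. CTSK, with the fewest counts (98 to 171), had the widest 95% interval, -0.35 to 0.14.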
